A study of Mus musculus with 6 samples.

Results

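The effect of TCDD on double-negative (DN) thymocytes that had stayed inside cultured fetal thymus lobes was taken from 2 of the 6 arrays of the series: 1 array of TCDD-treated thymocytes and 1 of thymocytes given the solvent dioxane. They were chosen by their labels, as the only arrays of cells from the lobes themselves. The other 4 arrays, 2 per treatment, held DN emigrants, cells recovered from buffer flushed over the lobes. All cells came from C57BL/6 mice. Thymus lobes were removed on day 15 of gestation and kept for 6 days as organ cultures with 5 to 6 lobes on each insert, up to an age of 21 days post coitum. TCDD (2,3,7,8-tetrachlorodibenzo-p-dioxin) was given at 10 nM, dioxane alone at 0.1% by volume on the thymocyte label, and the medium was renewed every 2 days. Cells without CD4 and CD8 were enriched with magnetic beads to a purity above 95%, and RNA of pooled cells was amplified and hybridised to Affymetrix arrays. A bead selection of this kind keeps any blood or stromal cell that carries neither marker.

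TCDD is a persistent ligand of the aryl hydrocarbon receptor (AHR), a transcription factor that rests in the cytoplasm with HSP90. With a ligand it moves to the nucleus, pairs with ARNT and binds short response elements upstream of its target genes, among them the CYP1 monooxygenases and the gene of its own repressor, AHRR. The fetal thymus is known as a sensitive target of dioxin. DN thymocytes are the earliest precursors there: they pass from cells with KIT and CD44 to cells with CD25 (Il2ra), rearrange their receptor genes with the RAG recombinase and terminal transferase, and then divide.

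The values are log2 array signals (RMA, described with the processing), so that a difference of 1 is 2-fold, and each difference below is TCDD minus dioxane. With 1 array per treatment there is no replicate check and no p-value, and a difference between the arrays is not separated from a difference between 2 cultures. In RNA of pooled cells, fewer cells of a type and less RNA per cell cannot be told apart. Of 22690 probe sets, 64 were controls and 20380 carried a single gene. A gene is given by its brightest such probe set over the 6 arrays, which covered 12393 genes. Both thymocyte arrays had a median of 4.88. The highest of 27 Bacillus subtilis control probe sets, transcripts that mouse cells do not make, read 4.72 with dioxane and 4.46 with TCDD. Signal under this level is not separable from background, and the size of a difference taken from it is uncertain. This holds for every such value below, also where it is not repeated. The 18 other bacterial and phage controls, of transcripts that the standard protocol adds to the sample, read higher on the TCDD array in 18 of 18 cases, with a median difference of 1.00 (0.49 to 1.28). Actin probe sets at the 3' end exceeded those at the 5' end by 3.48 with dioxane and 4.15 with TCDD, a measure related to RNA integrity. The same measure for Gapdh went the other way, at 6.10 with dioxane and 5.86 with TCDD. Whether these shifts bear on the differences between genes was not tested.

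The labelled cell type was read from its markers. All 13 measured markers of DN precursors were above the control level with dioxane and 12 of them with TCDD, where Rag2 was under it. Ptcra, the invariant chain of the pre-T-cell receptor, measured 9.86 with dioxane and 9.83 with TCDD. Notch1, the receptor that sets the T-cell fate, measured 9.41 and 9.05. These genes were among the least changed markers. Of the 13, 4 were higher with TCDD, and the median difference was -0.44. Dntt (-3.25) and Rag1 (-2.70) were far lower, and Cd44 (2.17) and Kit (2.05) were higher. Cd4 (5.18 and 5.10), Cd8a (4.70 and 4.93) and Cd8b1 (3.86 and 3.76), the markers removed by the beads, were at or near background on both arrays. Both arrays thus carried the transcripts of the labelled cells.

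Between the arrays, 351 genes were at least 2-fold higher with TCDD (2.83% of all genes) and 346 at least 2-fold lower (2.79%). These shares are the background for the counts of list members at least 2-fold higher or lower below. Smaller differences counted by sign alone have another background: 6380 of the 12393 genes (51.5%) were higher by any amount and 6011 (48.5%) lower. Toward larger differences the split was uneven, with 59 genes higher and 22 lower by 4-fold or more, and 16 higher and 2 lower by 8-fold or more. The 2 were Slc16a1, a lactate transporter, and Dntt, the terminal transferase. Over all genes the median difference was 0.01 with an SD of 0.49 across genes. Only 0.389% of the 5396 genes with a mean level under 5 were 2-fold higher, against 7.18% of the 1964 genes between 7 and 9.

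**Figure D1:**
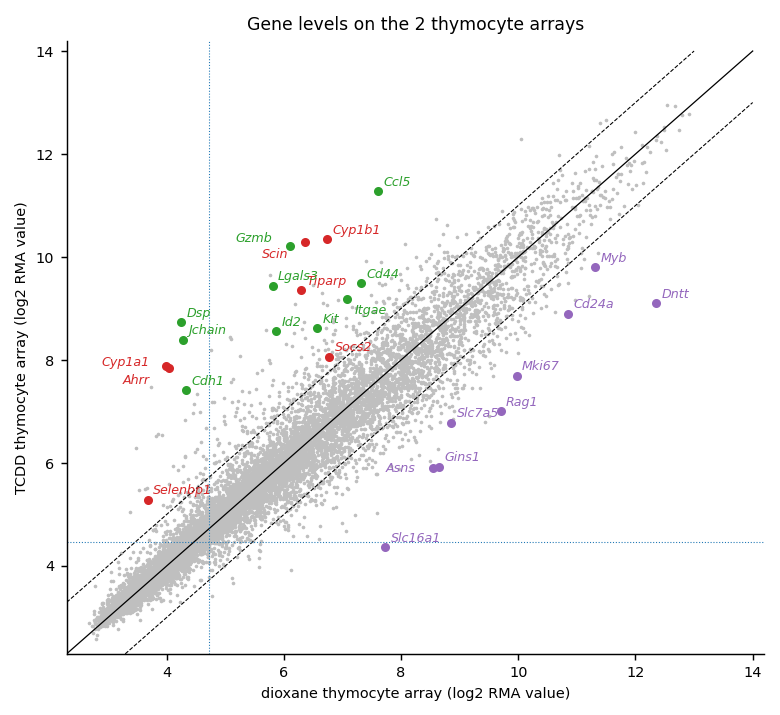
Level of each of 12393 genes in DN thymocytes with dioxane (x axis, log2) and with TCDD (y axis, log2), 1 array each. The solid line marks equal levels, dashed lines 2-fold differences and dotted lines the highest Bacillus subtilis control of each array (4.72 and 4.46). Labelled are AHR targets (red), other higher genes (green) and lower genes (purple). Genes far above the upper dashed line include Cyp1b1 and Scin, and Dntt lies far under the lower one.

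Probe sets of the same gene gave the check that the design allows. They share the RNA and the array, so their agreement speaks for the probes and not for the culture. A probe set was counted as informative when its brighter value was above the control level of its array, and 2642 genes had at least 2. Of the 697 genes that differed 2-fold either way (5.62%), 271 had such a set of probes. In 218 of the 271 (80.4%) all informative probe sets had the same sign, against 1612 of all 2642 genes (61.0%). In 61 of the 271 (22.5%) every informative probe set differed at least 2-fold, 26 higher (0.984% of the 2642) and 35 lower (1.32%). The remaining 2-fold genes had 1 informative probe set (425 genes) or none (1 gene), and for them there is no such check. A gene is counted in its list by its brightest probe set, and where others of a named gene went another way or crossed the 2-fold line they are given beside it. Lists count all measured members, also those without an informative probe set, whose sign was read at background. Across genes, the differences of the brightest and second brightest informative probe set correlated with a Pearson r of 0.58 and a Spearman rho of 0.51 (n = 2642), with a median gap of 0.30 log2 units between them. These points share both arrays, and genes are not independent replicates.

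**Figure D2:**
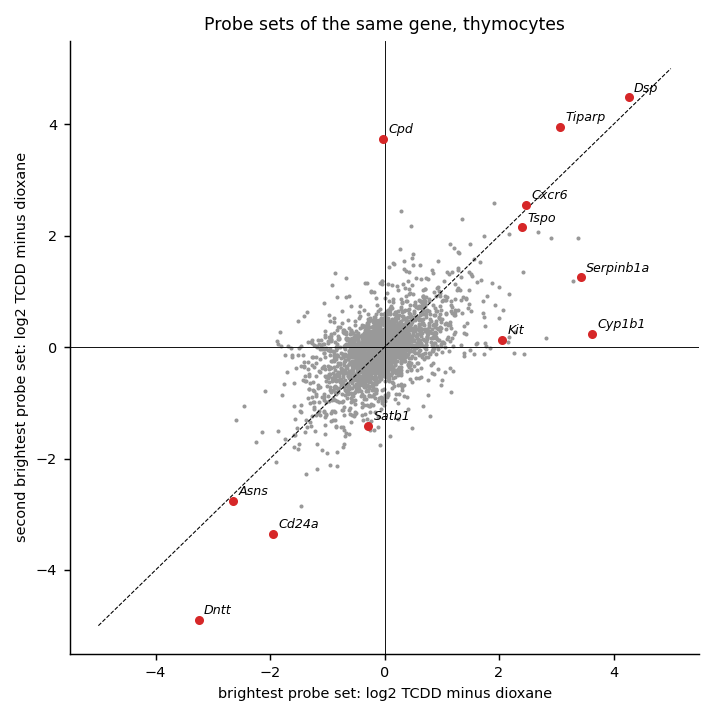
Difference (TCDD minus dioxane, log2) of a gene's brightest informative probe set (x axis) against that of its second brightest (y axis), for 2642 genes in DN thymocytes. The dashed line marks equal differences and red points the genes labelled. Dsp and Dntt lie far out on both axes, whereas Kit differs on its brightest probe set alone.

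Among the 34 gene lists examined, targets of the AHR had the largest share of higher members. Of 17 measured targets, 15 were higher with TCDD, 7 of them at least 2-fold, and none was 2-fold lower. The median difference was 0.80 against 0.01 over all genes. Only 10 of the 17 had an informative probe set, and the sign of the rest was read at background. Cyp1a1, the classical inducible monooxygenase, measured 3.99 with dioxane, under the control level, and 7.88 with TCDD. Its difference of 3.89, or 14.8-fold on the measured values, therefore has an uncertain size. Cyp1b1, a related monooxygenase that was already above background with dioxane, measured 6.73 and 10.35. The other informative Cyp1b1 probe sets read 3.41 and 5.44, and 5.00 and 5.24, so that the size of its difference depended on the probe set.

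Regulators of the receptor's own signal stood beside these enzymes. Ahrr, the repressor that competes for ARNT, measured 4.05 with dioxane, under the control level, and 7.84 with TCDD. Tiparp, an ADP-ribosyltransferase that restrains the receptor, measured 6.29 and 9.35, and its other 2 probe sets read 5.72 and 9.68, and 4.76 and 5.71. All 3 were thus higher with TCDD, by unequal amounts. Scin, a calcium-dependent protein that severs actin filaments, measured 6.37 and 10.30 on its only probe set, a difference of 3.93. Socs2, an inhibitor of cytokine signalling, measured 6.78 and 8.07 and was 2-fold higher on each of its 2 informative probe sets. Selenbp1, a selenium-binding protein, measured 3.68 and 5.29, the first of these under the control level. Its second informative probe set read 4.41 and 4.89, so that its 2-fold difference rests on 1 probe set.

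The promoters of the 5 targets that were at least 8-fold higher are shown because the core of the AHR response element, GCGTG, which reads CACGC when it lies on the opposite strand,, can be read in them. Each line gives the 200 bases upstream of the annotated start, 5' to 3' on the strand of the gene, from RefSeq on GRCm38.p6. Capitals mark the core motif.
Cyp1a1: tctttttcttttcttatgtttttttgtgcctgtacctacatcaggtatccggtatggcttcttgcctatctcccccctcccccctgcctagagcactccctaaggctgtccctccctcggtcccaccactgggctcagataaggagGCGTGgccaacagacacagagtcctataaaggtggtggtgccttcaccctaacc
Cyp1b1: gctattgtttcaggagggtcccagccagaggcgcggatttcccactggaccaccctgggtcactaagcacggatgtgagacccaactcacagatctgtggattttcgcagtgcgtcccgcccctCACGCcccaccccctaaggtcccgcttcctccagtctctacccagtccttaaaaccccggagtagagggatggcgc
Ahrr: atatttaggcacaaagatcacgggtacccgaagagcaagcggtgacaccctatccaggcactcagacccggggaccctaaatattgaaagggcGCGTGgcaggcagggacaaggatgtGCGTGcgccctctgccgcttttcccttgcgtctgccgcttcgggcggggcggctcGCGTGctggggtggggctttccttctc
Tiparp: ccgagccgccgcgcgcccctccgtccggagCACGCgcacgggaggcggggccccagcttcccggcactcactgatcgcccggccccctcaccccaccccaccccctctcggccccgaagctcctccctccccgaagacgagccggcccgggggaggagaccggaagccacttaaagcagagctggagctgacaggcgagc
Scin: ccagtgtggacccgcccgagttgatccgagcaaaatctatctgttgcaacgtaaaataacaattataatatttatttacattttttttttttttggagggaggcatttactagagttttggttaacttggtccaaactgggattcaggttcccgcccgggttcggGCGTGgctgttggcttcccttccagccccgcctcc
The windows are chr9:57697413-57697612 (+) for Cyp1a1, chr17:79715062-79715261 (-) for Cyp1b1, chr13:74292332-74292531 (-) for Ahrr, chr3:65528247-65528446 (+) for Tiparp and chr12:40134229-40134428 (-) for Scin. The motif began 54 bases before the start in Cyp1a1 and 35 before it in Scin, on the strand of the gene. Ahrr held 3 copies, at 107, 82 and 27 bases. In Cyp1b1 (76 bases) and Tiparp (170 bases) the core lay on the opposite strand. Promoter entries of 300 bases (250 before to 50 after the start) were matched for 6 of the 7 targets that were 2-fold higher, and 6 of 6 held the core. So did 45.3% of the 12566 windows of measured genes, 44.5% of the 362 windows of genes 2-fold higher with TCDD and 58% of the 379 windows of genes 2-fold lower. The longer form TNGCGTG, which contains the core, was in 1 of the 6 target windows, that of Ahrr, and in 7% of the windows of measured genes. The core is a short and frequent word, its presence is a description of the letters, and binding was not measured here.

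Not every AHR target was high. Nqo1, a quinone reductase shared with the NRF2 pathway, measured 4.53 with dioxane and 5.34 with TCDD, and Xdh, xanthine dehydrogenase, 4.01 and 4.82. Both dioxane values lay under the control level. Nfe2l2, which encodes NRF2, measured 7.47 and 7.84. Cyp1a2 (4.21 and 4.10) and Aldh3a1 (3.16 and 3.14), targets best known from liver and epithelia, were under the control level on both arrays. Of the 12 measured members of the receptor complex, 4 were higher and none differed 2-fold on its brightest probe set. Arnt read 4.41 and 4.45, under the control level on both arrays. Ahr itself measured 9.10 and 8.93. Hsp90aa1, its chaperone, measured 10.49 and 10.02, but another of its probe sets was more than 2-fold lower (7.51 and 5.93) and yet another slightly higher (8.75 and 8.91). Smarca4, a chromatin remodeller that serves as a coactivator, measured 8.24 and 7.46. The antioxidant genes grouped under NRF2 had 7 of 21 members higher, none 2-fold either way and a median of -0.15. Fth1, the ferritin heavy chain, measured 10.08 and 9.15, and Sod2, the mitochondrial superoxide dismutase, 9.35 and 10.01.

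**Figure D3:**
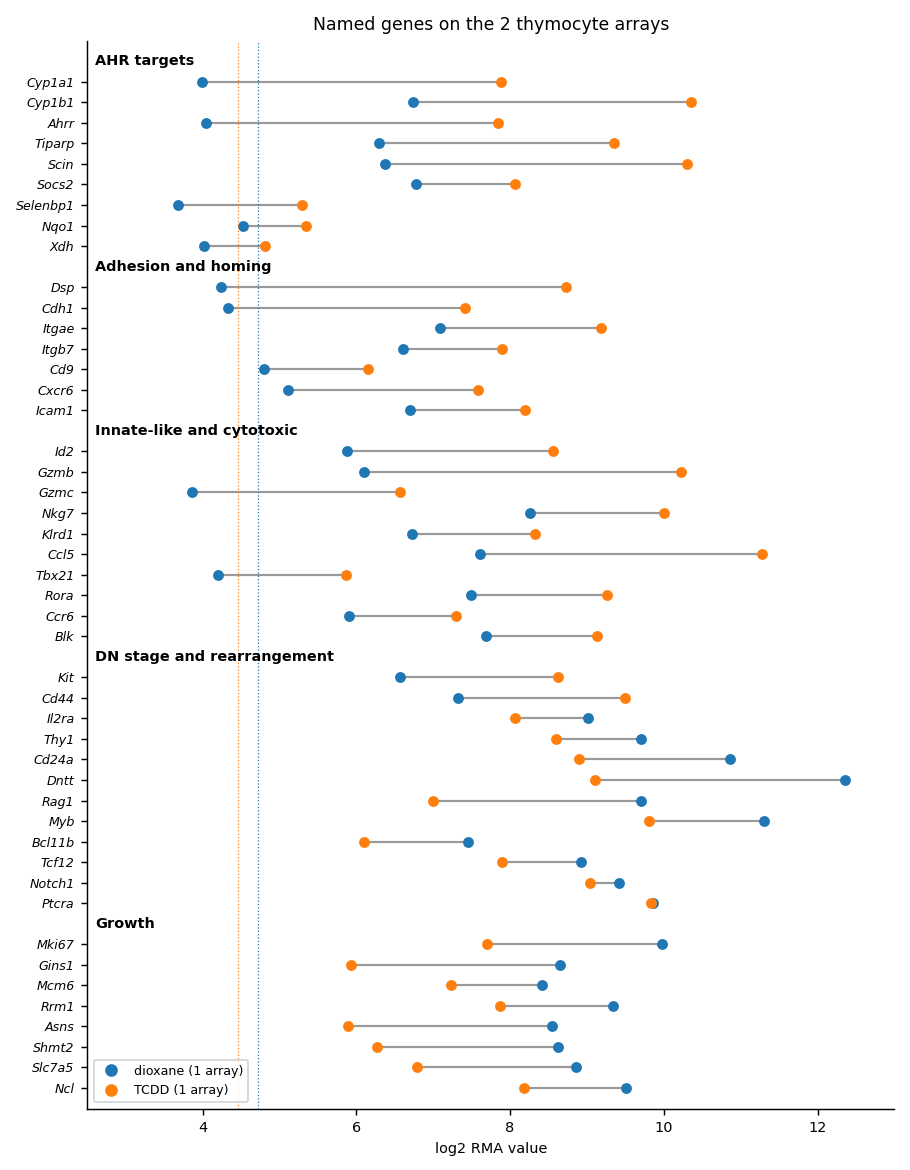
Level (log2) of selected genes in DN thymocytes with dioxane and with TCDD, 1 array each, joined by a line; dotted lines give the highest Bacillus subtilis control of each array. AHR targets, cytotoxic and adhesion genes lie to the right with TCDD, and Dntt, Rag1, Asns and Mki67 lie to the left.

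Adhesion molecules were among the largest differences. Dsp (desmoplakin), which anchors keratin filaments to cell junctions, showed the largest difference of all genes: it measured 4.24 with dioxane and 8.73 with TCDD, or 22.5-fold on the measured values. A second informative Dsp probe set read 4.42 and 8.68, and the dioxane value of both was under the control level. The remaining probe set was under it on both arrays. Cdh1, E-cadherin, measured 4.33 and 7.42, and Itgae, the CD103 chain of the integrin that binds E-cadherin, 7.08 and 9.18. Its partner Itgb7 measured 6.61 and 7.89. The receptor chain and its ligand were therefore both more than 2-fold higher on the TCDD array, although Cdh1 with dioxane lay under the control level. Cell markers of thymic epithelium, a usual source of Cdh1 and Dsp, stood as follows on the same arrays. Krt14, Krt18 and Foxn1 were under the control level on both, Krt5 measured 5.20 and 5.29, Krt8 5.48 and 5.81, and Epcam 6.67 and 7.35. The summed linear level of the 6 measured markers was 233 with dioxane and 311 with TCDD, and their part in these differences was not tested.

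Of all 19 measured adhesion and homing genes, 14 were higher, 6 of them 2-fold, and none was 2-fold lower (median 0.45). Icam1, a ligand of leukocyte integrins, measured 6.70 and 8.20. Cd9 and Cd53, membrane tetraspanins, measured 4.80 and 6.15, and 8.92 and 10.01. Ccr9, the receptor for the thymic chemokine CCL25, measured 8.91 and 9.66, and its second informative probe set 5.56 and 6.78. S1pr1, which guides lymphocyte exit, measured 5.91 and 6.47, and its regulator Klf2 4.87 and 5.23; neither reached 2-fold. Itga4 (5.51 and 4.90) and Itga6 (6.81 and 6.30), integrin chains of immature thymocytes, were on the lower side.

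The genes that hold the T-cell programme were mostly on the lower side. All 7 measured genes of receptor gene rearrangement were lower, 2 of them at least 2-fold, with a median of -0.77. Dntt, which adds bases at receptor gene joints, measured 12.36 with dioxane and 9.10 with TCDD. Its other informative probe sets read 10.35 and 5.45, and 6.74 and 4.26, so every one was more than 4-fold lower. Rag1 measured 9.70 and 7.00 on a single informative probe set. Rag2, its partner, measured 4.82 and 4.05, the latter under the control level. Xrcc6, the KU70 subunit that joins DNA ends, measured 7.59 and 6.62.

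Among 15 T-lineage transcription factors, 12 were lower, 4 of them 2-fold, and none was 2-fold higher (median -0.28). Of the 7 with more than 1 informative probe set, 4 had the same sign on all of them. Myb, needed for the passage through the DN stages, measured 11.31 and 9.81, and a second probe set read 8.93 and 7.20. Bcl11b, which commits cells to the T lineage, measured 7.45 and 6.09, and Gfi1, a repressor, 8.17 and 6.99. Sox4 measured 9.06 and 7.45, but its dimmer informative probe sets read 5.49 and 5.35, and 4.45 and 4.52, so its 2-fold difference rests on 1 probe set. Gata3 measured 6.88 and 6.59. For Runx1 the brightest probe set read 6.77 and 6.72, another 4.63 and 4.73, and yet another was 2-fold lower at 5.75 and 4.74. Satb1, a chromatin organiser, depended on the probe set: its brightest read 9.90 and 9.61, whereas 2 others read 8.34 and 4.87, and 8.65 and 7.24.

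E proteins drive receptor gene rearrangement, and ID proteins hold them inactive. Id2, which promotes innate lymphoid fates, measured 5.87 with dioxane and 8.55 with TCDD. Its other informative probe sets read 5.64 and 7.71, and 5.25 and 5.99, and so had the same sign. Id3, the inhibitor induced by receptor signals, measured 4.96 on both arrays. Tcf12, the E protein HEB, measured 8.92 and 7.89 and was 2-fold lower on each of its 2 informative probe sets. Tcf3, which encodes E2A, measured 5.69 and 5.40.

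Receptor and signalling genes of the pre-T-cell receptor had 12 of 17 members lower, 3 of them 2-fold, with a median of -0.18. Only 1 of the 4 with more than 1 informative probe set had the same sign on all of them. Cd28, a costimulatory receptor, measured 8.23 and 6.51, and a second probe set 5.69 and 5.24. Lat, the adaptor below the receptor, measured 9.07 and 7.73, and Cd3d 10.07 and 9.03. Cd3e (8.91 and 8.47) and Cd3g (9.14 and 9.61) fell on opposite sides. In the Notch pathway 12 of 18 members were higher, none 2-fold, and 1 was 2-fold lower (median 0.15). That gene was Notch3, at 7.53 and 6.25, with a second probe set at 5.38 and 5.06. The Notch targets Dtx1 (7.29 and 7.77) and Hes1 (6.18 and 6.55) were slightly higher.

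Surface markers of the DN stages did not move together. Cd44, present on the earliest and on activated cells, measured 7.32 and 9.49. Kit, the receptor of early precursors, measured 6.57 and 8.62, but its second informative probe set read 4.67 and 4.81. Il2ra, the mark of the later DN stages, measured 9.01 and 8.07, with a second probe set at 4.65 and 4.76. Cd24a, a glycoprotein of immature thymocytes, measured 10.86 and 8.90, and its other informative probe sets, at 10.31 and 6.96 and at 8.56 and 6.73, were also more than 2-fold lower. Thy1 measured 9.70 and 8.60. Early progenitor genes, which mark cells before T-lineage commitment, had 6 of 15 members higher and a median of -0.02. In that list Hhex, a homeobox factor, measured 5.84 and 6.85, while Flt3 (5.60 and 5.59) and Lmo2 (5.65 and 5.82) differed by less than 2-fold. Spi1 (4.61 and 4.31) was under the control level on both arrays.

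Interleukin 7 keeps DN cells alive through JAK and STAT5. Of 14 genes of this pathway 10 were higher, 3 of them 2-fold, and none was 2-fold lower (median 0.38). Il7r measured 9.65 with dioxane and 9.96 with TCDD. Pim1, a survival kinase induced by STAT5, measured 6.92 and 9.17. The feedback inhibitors Cish (6.30 and 7.54) and Socs3 (6.74 and 7.74, with dimmer probe sets at 5.27 and 5.77 and at 5.08 and 5.60) were higher too, as was Socs2 among the AHR targets, whereas Socs1 measured 4.84 and 4.57.

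Cytotoxic and innate-like lymphocyte genes were mostly on the higher side. Of 19 measured NK and cytotoxic genes, 16 were higher, 9 of them at least 2-fold, with a median of 0.84. Only 2 of the 19 had more than 1 informative probe set, and in each of these the sign differed between probe sets. None of the genes 2-fold higher had this check. Gzmb, the granzyme that activates caspases in target cells, measured 6.11 with dioxane and 10.22 with TCDD. Ccl5, a chemokine of cytotoxic cells, measured 7.61 and 11.28, and Gzmc, another granzyme, 3.86 (under the control level) and 6.56. Nkg7, a granule membrane protein, measured 8.26 and 10.00, and Klrd1 (CD94) 6.73 and 8.33. The adaptors Fcer1g (5.55 and 7.75) and Tyrobp (6.21 and 7.56), shared by NK and myeloid cells, were higher as well. Tbx21, the factor T-bet, measured 4.20, under the control level, and 5.86.

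Other defining genes of NK cells differed by less than 2-fold. Gzma was among the brightest transcripts on both arrays, at 12.20 and 12.14. Prf1, perforin, measured 4.97 and 5.08, Eomes 5.19 and 5.34 (a second probe set 4.83 and 4.79), and Ncr1, the receptor NKp46, 4.90 and 4.66. The list of 7 NK markers summed to a linear level of 4984 with dioxane and 6191 with TCDD. Gzma, the brightest of them, held most of both sums, which therefore say little about the other markers. Of these 7, Gzmb, Klrd1 and Tbx21 were at least 2-fold higher, and the other 4 were the genes just given.

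Of 10 measured gamma-delta and innate-like T-cell genes, 8 were higher and 6 were 2-fold higher, with a median of 1.40. Zbtb16, the factor PLZF of innate-like T cells, measured 4.04, under the control level, and 5.59. Blk, a kinase of interleukin-17-producing gamma-delta cells, measured 7.69 and 9.14. Il1r1 (5.41 and 7.00) and Ccr6 (5.91 and 7.30), receptors found on the same cells, were higher by similar amounts. For Icos (7.18 and 8.60) and Rora (7.49 and 9.26) the second informative probe sets read 6.04 and 6.28, and 5.08 and 5.09. Sox13, a factor of early gamma-delta cells, ran the other way at 6.67 and 5.62. Il17a measured 5.98 and 6.54, and the receptor segment Trgv4 9.84 and 10.44, both under 2-fold.

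Genes of cell division were lower almost throughout. Of 27 genes of DNA replication and nucleotide synthesis, 25 were lower with TCDD and 10 at least 2-fold (median -0.87), and in 11 of the 12 with more than 1 informative probe set all of them had the same sign. Gins1, part of the replicative helicase, measured 8.65 with dioxane and 5.93 with TCDD. Mcm5 (7.08 and 5.51), Mcm6 (8.42 and 7.23) and Mcm7 (10.81 and 9.70) belong to the same helicase. The other Mcm7 probe sets were lower too, from 7.11 and 6.55 to 8.25 and 6.40. Rrm1, the large subunit of ribonucleotide reductase, measured 9.33 and 7.87, with a second probe set at 5.05 and 4.71, and Pola1, a subunit of the polymerase that starts DNA strands, 8.36 and 7.21. Pcna, the sliding clamp, remained bright at 12.02 and 11.40. Ccne2 (4.93 and 4.95) and Fen1 (10.21 and 10.29) were the members that were not lower.

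Mitosis genes had 25 of 28 members lower and 6 at least 2-fold (median -0.46), with the same sign on all informative probe sets in 9 of 9 genes that had more than 1. Mki67, the proliferation marker, measured 9.97 and 7.70. Top2a, the topoisomerase of dividing cells, measured 11.07 and 9.79, Nusap1, a spindle protein, 9.21 and 7.76, and Bub1, a checkpoint kinase, 7.39 and 6.26, with a second probe set at 4.83 and 4.39. Cdk1 measured 8.98 and 8.65. A list of CDK inhibitors with the D cyclins and their kinases had 8 of 14 members higher and a median of 0.14. Cdk4, a kinase that drives the cycle, was its lowest member at 8.93 and 8.18. Of the inhibitors, Cdkn2d (p19) measured 5.72 and 6.74, Cdkn1b (p27) 6.54 and 6.96, and Cdkn1a (p21) 6.96 and 6.46. Of the 16 p53 targets 9 were higher. Btg2 measured 8.25 and 9.41 (a second probe set 5.34 and 6.10), and Gadd45a 3.94, under the control level, and 5.18. In the BCL2 family and death genes 8 of 15 were higher (median 0.06). Bid, a caspase-cleaved death factor, measured 6.61 and 4.77. Mcl1, a survival factor, had no common direction: it measured 8.64 and 9.58, but 4 of its 6 informative probe sets were lower with TCDD, and the 6 ranged from -0.66 to 0.94.

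Growth metabolism was lower alongside. Asns, asparagine synthetase, measured 8.55 with dioxane and 5.90 with TCDD, and both of its informative probe sets differed by at least 6.28-fold. In its list of serine, one-carbon and asparagine synthesis 13 of 16 members were lower, 6 of them 2-fold, with a median of -0.52. Shmt2, the mitochondrial serine hydroxymethyltransferase, measured 8.63 and 6.27. Psat1, in serine synthesis, measured 9.34 and 7.45, with a second probe set at 9.13 and 8.30, and Slc7a5, a transporter of large amino acids, 8.86 and 6.79. Their regulator Atf4 measured 8.18 and 7.94, and 5.58 and 5.95 on a second probe set. Ppat, which starts purine synthesis, measured 7.55 and 6.02 and was 2-fold lower on every informative probe set.

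Ribosome assembly genes were lower in 18 of 19 members, 5 of them 2-fold (median -0.54). Ncl, nucleolin, measured 9.50 and 8.18 (a second probe set 5.38 and 4.64), Nop56, a nucleolar protein, 8.49 and 7.07 (a second probe set 6.14 and 5.54), and Wdr12, which matures the large subunit RNA, 8.13 and 6.45. Sterol and fatty acid synthesis had 19 of 21 members lower and 5 at least 2-fold (median -0.46). Of the 9 with more than 1 informative probe set, 5 had the same sign on all of them. Hmgcs1, an early enzyme of that pathway, measured 11.36 and 10.09 and was lower on all 4 informative probe sets, by -1.28 to -0.90. Sqle, squalene epoxidase, measured 8.65 and 7.46, and Lss, the next enzyme, 7.92 and 6.60. The factor Srebf2, which drives these genes, measured 5.80 and 5.69, and 5.18 and 5.47 on a second probe set.

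Of 18 glycolysis and hypoxia genes 13 were lower, 4 of them 2-fold (median -0.33). Pkm, pyruvate kinase, measured 6.85 and 5.13, Aldoa, aldolase, 9.34 and 8.15 (4 probe sets, -1.32 to -0.84), and Ldha, lactate dehydrogenase, 12.04 and 11.02. Slc16a1, which carries lactate across the membrane, had the largest difference on the lower side: it measured 7.73 with dioxane and 4.37 with TCDD, the latter under the control level. Respiratory chain subunits did not share this direction, with 12 of 21 higher, none 2-fold either way and a median of 0.10.

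**Figure D4:**
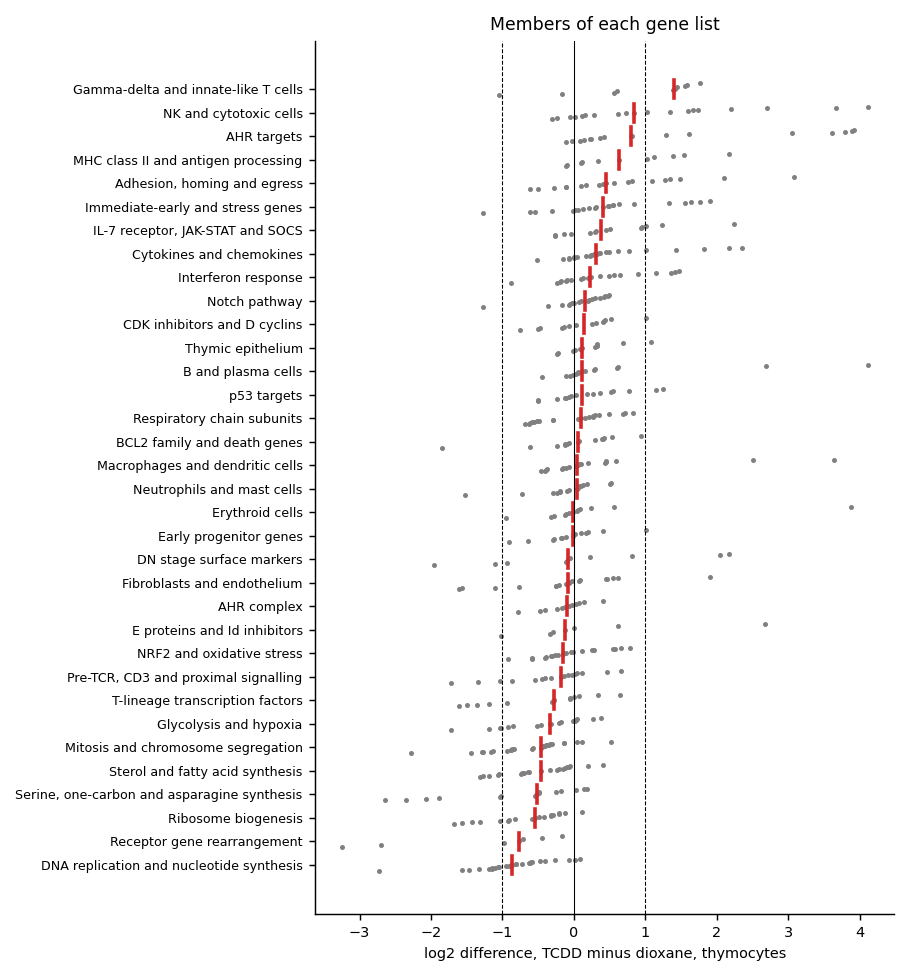
Difference (TCDD minus dioxane, log2) in DN thymocytes of each measured member (points) of 34 gene lists, with the median of each list as a red bar; dashed lines mark 2-fold. Gamma-delta, cytotoxic and AHR target genes have the highest medians (1.40, 0.84 and 0.80), and DNA replication genes the lowest (-0.87).

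Genes of inflammation and antigen presentation were mostly higher. Of 24 cytokine and chemokine genes 18 were higher, 5 of them 2-fold (median 0.30), and 17 of the 24 had an informative probe set. In the 2 genes with more than 1 informative probe set, the sign differed between the probe sets of each gene. Cxcl10, a chemokine induced by interferon, measured 6.17 and 8.52, and Cxcl2, an attractant of neutrophils, 5.76 and 7.94. Ltb, lymphotoxin beta, measured 5.29 and 6.72, and Csf2 4.59 and 6.41, the first under the control level. Immediate-early genes, which answer growth and stress signals within minutes, had 18 of 23 members higher, 5 of them 2-fold (median 0.41). Ier5 measured 6.73 and 8.63, Klf6 6.30 and 8.06 (other probe sets higher by 0.37 and 0.63), and Zfp36, which destabilises cytokine mRNA, 6.86 and 8.50. Egr1 (11.26 and 11.28), Fos (10.11 and 10.74) and Myc (5.85 and 5.54) were under 2-fold, and Hspa1b, a heat-shock protein, was lower at 6.72 and 5.44.

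Interferon response genes had 13 of 20 members higher and 4 at least 2-fold (median 0.22). They were Gbp2 (6.36 and 7.83) and Igtp (7.79 and 9.21), guanosine triphosphatases of cell defence, together with Ifit1 (5.52 and 6.88) and Bst2 (6.54 and 7.70). Usp18, a brake on interferon signals, measured 7.42 and 7.24. The direction of Rsad2, an antiviral enzyme, depended on the probe set, with the brightest at 9.01 and 8.77 and the other informative one at 6.37 and 7.37. Class II antigen presentation had 9 of 11 members higher and 5 at least 2-fold (median 0.63), and 7 of the 11 had an informative probe set. H2-Aa measured 8.08 and 10.25, and a second probe set 5.16 and 6.12. H2-Eb1 measured 6.82 and 8.36. H2-Ab1 measured 5.67 and 7.05, but its second informative probe set read 5.05 and 4.89. Ciita, the switch of the class II genes, was under the control level on both arrays.

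Transcripts of other cell types were compared on the same arrays. The 10 measured macrophage and dendritic markers summed to a linear level of 513 with dioxane and 493 with TCDD, with Itgam and Apoe under the control level on both. In the longer list of 20 such genes 12 were higher, 2 of them 2-fold (median 0.05). Those were Lgals3, a galactose-binding lectin, at 5.81 and 9.45, and Fcgr3, an antibody receptor shared with NK cells, at 5.13 and 7.63. Csf1r, the macrophage growth factor receptor, measured 7.54 and 7.57 (a second probe set 6.45 and 6.17), and Lyz2, a macrophage lysozyme, 5.96 and 5.49. The higher class II, Lgals3 and Fcgr3 values thus came with summed macrophage markers that differed little.

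The 8 neutrophil and mast cell markers summed to 529 with dioxane and 389 with TCDD, and of 18 such genes 10 were higher and 1 was 2-fold lower: Cpa3, the mast cell carboxypeptidase, at 7.25 and 5.73. The 4 measured B-cell markers summed to 91.7 and 102, with Cd79a and Pax5 under the control level on both arrays. In the list of 15 B and plasma cell genes, of which 11 had an informative probe set, 11 were higher, 2 of them 2-fold. Jchain, which joins immunoglobulin chains, measured 4.28 and 8.40, and Pou2af1, a coactivator of octamer factors, 4.46 and 7.15. The dioxane values of both lay under the control level. Ighm measured 9.02 and 8.58, and its 5 informative probe sets ranged from -0.45 to 0.17.

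Erythroid markers summed to 89.1 with dioxane and 80.9 with TCDD over 3 genes, and 6 of 13 erythroid genes were higher. Car2, a carbonic anhydrase, measured 5.76 and 9.65, while Alas2 (4.74 and 4.63) and Hba-a1 (4.47 and 4.53) were near background. Hbb-y, an embryonic globin, was higher on all 3 of its probe sets, which read 4.50 and 5.07, 5.29 and 7.32, and 5.29 and 7.46; the first of these, the brightest over the 6 arrays, is the one counted in the list. Of 11 epithelial genes 8 were higher and 1 was 2-fold higher, the protease Ctsl at 8.63 and 9.71. The 8 fibroblast and endothelial markers summed to 1047 and 1037, with Pecam1 and Cdh5 under the control level on both. Of 20 such genes 7 were higher and 3 at least 2-fold lower, among them Pdgfrb (5.58 and 3.97) and Postn (6.33 and 4.77). Vim, vimentin, which lymphocytes also make, measured 6.83 and 8.75. The 3 later thymocyte markers summed to 76.6 and 78.2. Of 5 gamma-delta markers 3 were measured, without Trdc and Tcrg-C1, and they summed to 181 and 191. In that sum Sox13 was lower and Zbtb16 and Il17a were higher, so it does not measure gamma-delta cell content. The 13 DN precursor markers summed to 11336 with dioxane and 6098 with TCDD. Dntt, at 12.36 and 9.10, carried the largest part of this difference, and 4 of the 13 markers were higher. The part of differing cell mixtures in any gene's difference was not tested.

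Genes that differed 2-fold on every informative probe set were ranked by their smallest such difference. After Dsp on the higher side came Cxcr6, a chemokine receptor of innate-like and tissue lymphocytes, at 5.11 with dioxane and 7.58 with TCDD. Tspo, a cholesterol-binding protein of the outer mitochondrial membrane, measured 6.35 and 8.75 with 3 probe sets in agreement. Plscr1, a phospholipid scramblase, measured 4.82 and 7.18, and S100a10, a calcium-binding protein family member, 7.58 and 9.14. Cd244a, a receptor of NK cells, measured 4.57, under the control level, and 6.99. Btg1, an antiproliferative factor, measured 8.32 and 9.82, and Emb, an adhesion glycoprotein, 8.63 and 9.92. Itm2b (10.70 and 11.97), Lamtor5, part of a lysosomal complex (8.56 and 9.83), and Csn2, a casein gene (5.45 and 7.12), were further members, as were Vim, Gbp2 and Socs2. Serpinb1a, an inhibitor of granule proteases, measured 4.76 and 8.19, with its second informative probe set at 3.27 and 4.53.

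On the lower side the same ranking held Asns, Dntt, Cd24a, Myb, Nolc1 and Ppat. Rfc4, which loads the sliding clamp, measured 7.22 and 4.98. Endou, an endoribonuclease, measured 9.50 and 6.91. Proteins of translation and folding were present: Naca, bound to nascent chains, at 9.80 and 8.15, Abce1, which recycles ribosomes, at 9.08 and 7.51, and Hspa9, the mitochondrial HSP70, at 8.95 and 7.38. Aldh18a1, in proline synthesis, measured 6.27 and 4.81. Mtf2, a Polycomb-associated protein, measured 9.80 and 8.42 and was lower on all 4 of its informative probe sets. Ybx3 (9.43 and 8.08) and Nrep (8.11 and 6.80) were also in it. Besides the named genes, 1 gene on each side carried only a predicted name.

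Genes with a single informative probe set lack this check. The largest of these on the higher side were Jchain, Gzmb, Scin, Cyp1a1, Car2 and Ahrr. On the lower side they were Slc16a1, Gins1, Rag1, Bex1 (9.70 and 7.03), Naf1, an assembly factor of small nucleolar RNA particles (9.44 and 6.80), and Khdc1a (7.58 and 5.03). A single gene had informative probe sets that differed 2-fold in opposite directions: Rbm39, a splicing factor, with 9 informative probe sets between -1.52 and 1.90.

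The emigrants, which share no array with the thymocytes, gave a second reading of the same treatment. The TCDD emigrant arrays are numbered 1 and 2 in their titles, and 1 dioxane emigrant array is numbered 2. The other dioxane emigrant array carries no number and was counted here as number 1. The pair numbered 1 stood apart in myeloid transcripts. Its 10 macrophage and dendritic markers summed to 9443 with dioxane and 12600 with TCDD, against 1968 and 6056 in the pair numbered 2. Between the dioxane emigrant arrays 12.5% of genes differed 2-fold, and between the TCDD emigrant arrays 9.68%. TCDD emigrants numbered 1 had 454 genes 2-fold higher (3.66%) and 317 lower (2.56%), and those numbered 2 had 425 (3.43%) and 268 (2.16%).

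Thymocyte differences had the same sign mostly in the second pair. Of the 351 genes 2-fold higher in thymocytes, 319 were higher in emigrants numbered 2 (90.9%) and 207 in emigrants numbered 1 (59.0%). Of the 346 lower genes, 308 (89.0%) and 196 (56.6%) were lower. Over all genes the shares of the same sign were 60.8% and 51.6%. In both pairs 369 of the 697 genes had the same sign (52.9%), against 32.8% of all genes. The correlation of differences across genes was 0.53 with the pair numbered 2, 0.10 with the pair numbered 1, and 0.14 between the emigrant pairs. These are descriptions over genes of the same few arrays. The 26 genes higher on every informative probe set had the same sign in 26 cases in the pair numbered 2 and in 16 in the pair numbered 1. For the 35 lower genes these were 31 and 20.

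**Figure D5:**
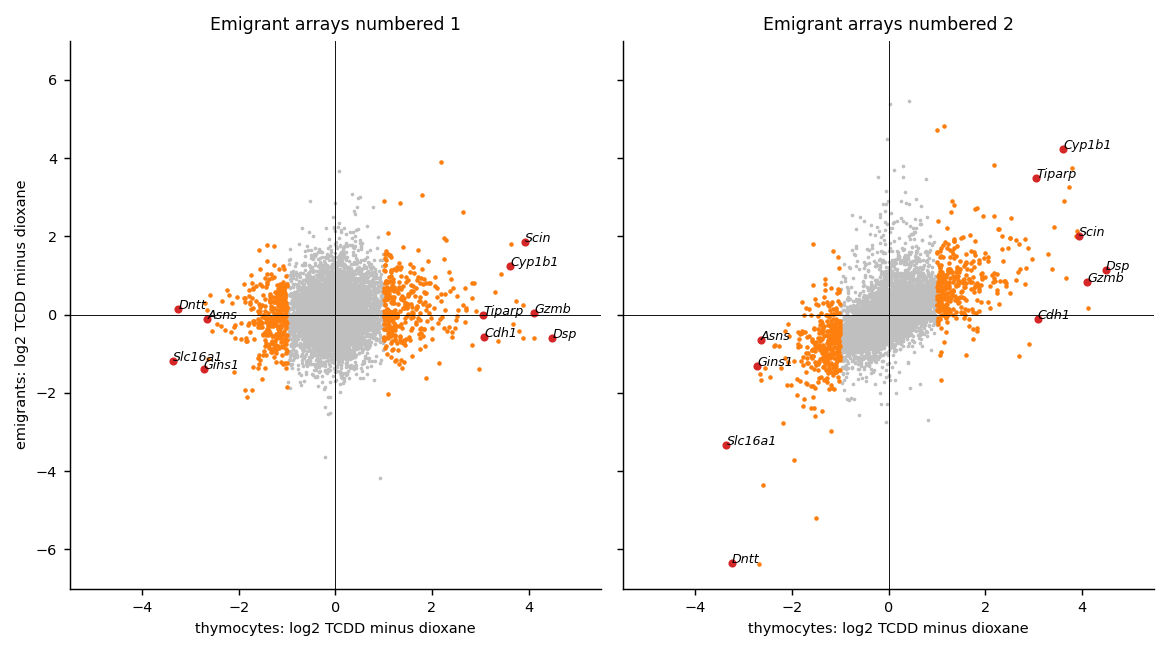
Difference (TCDD minus dioxane, log2) in DN thymocytes (x axis) against the same difference in emigrants numbered 1 (left) and numbered 2 (right), for 12393 genes; orange points are the 697 genes that differed 2-fold in thymocytes, and labelled genes are red. The orange points lie mostly in the lower left and upper right in the pair numbered 2 (r = 0.53 over all genes) and less so in the pair numbered 1 (r = 0.10).

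At least 2-fold in all 3 pairs were 22 higher and 16 lower genes. Scin, Cyp1b1, Selenbp1, Lgals3, Serpinb1a, Vim, Cd9, Cxcl1, Cxcl2 and Ifi30 were among the higher ones. Among the lower ones were Slc16a1, Gins1, Naf1, Cd28, Sox4, Ppat and Nusap1. Scin measured 5.21 and 4.55 on the dioxane emigrant arrays and 7.06 and 6.57 on the TCDD ones. Slc16a1 measured 7.61 and 7.62 with dioxane, and 6.44 and 4.30 with TCDD. For Cyp1b1, Selenbp1, Cd28 and Sox4 other thymocyte probe sets differed less, as given above.

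Other large thymocyte differences were smaller or of opposite sign in at least 1 emigrant pair. In emigrants numbered 1, Dsp read 4.49 on the dioxane array and 3.89 on the TCDD array. In emigrants numbered 2 it measured 3.64, under that level, and 4.77, above the highest control of 4.34, a difference of 1.13 in the direction seen in thymocytes. Cdh1 measured 4.15 and 4.45 with dioxane and 3.59 and 4.33 with TCDD, Pou2af1 4.75 and 4.78 against 4.56 and 3.71, and Jchain 10.39 and 3.90 against 9.78 and 4.08. For Rag1 the counterpart depended on the pair. In the pair numbered 2, Rag1 read 9.99 without TCDD and was under the control level (3.61) with it, and in the pair numbered 1 it was under that level on both arrays.

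Whether a TCDD difference differed between thymocytes and emigrants was tested with limma over all 6 arrays, in which the lone thymocyte arrays are assumed to vary like the emigrant arrays. With 2 residual degrees of freedom and a median SE of 0.50, limma called 0 of 12393 genes (0% of genes, smallest adjusted p = 1.00, Benjamini-Hochberg), and 97 genes had an unadjusted p under 0.05. None of the genes with the smallest p passed. On the side of a higher difference in thymocytes they were Cntnap2 (3.25 ± 0.52, difference of differences ± SE), Cdh1 (3.43 ± 0.59), Pou2af1 (3.32 ± 0.62), Dsp (4.23 ± 0.80) and Atp1b1 (2.29 ± 0.45). In thymocytes the informative probe sets of Cntnap2 ranged from 0.22 to 2.91 and those of Atp1b1 from -0.14 to 0.65. Ccl9 (-3.17 ± 0.47), Ccl6 (-2.48 ± 0.42), Clec4d (-2.89 ± 0.51), Igfbp4 (-2.09 ± 0.43) and Ms4a6d (-1.95 ± 0.42) stood on the other side. The 6 probe sets of Igfbp4 ranged from -2.43 to 0.00 in thymocytes. Ccl9, Ccl6 and Clec4d, myeloid genes, measured 5.12, 5.78 and 5.17 in TCDD thymocytes and at least 9.35 in TCDD emigrants. Since no gene passed, no thymocyte difference is shown here to be particular to cells inside the lobe. In the emigrants, deviations of the arrays numbered 1 from their group means correlated across genes (r = 0.56). The fit counts that shared part as residual spread. An empty result therefore does not show that the sources respond alike.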

How the data were processed

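Per the submitters' processing notes, the deposited log2 values are RMA summaries (background-corrected, normalised across arrays), and per the series design text the authors used the Bioconductor affy package; no version is given in the sources used here. Its values carry no detection calls, and differences of dim genes are compressed. Probe sets were named from platform annotation of 2016. Of 22690 probe sets, 64 controls, 691 that match several genes and 1555 that name none were left out, which left 20380. Of 12393 genes, 4956 had more than 1 probe set.

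The groups were thymocytes with dioxane and with TCDD (1 array each) and emigrants with dioxane and with TCDD (2 each). No source describes the emigrant arrays of a treatment as separate cultures, so p-values reflect the spread between arrays, which may be technical. Thymocytes were compared by log2 difference, with 2-fold as the threshold. The difference between sources was fitted with limma 3.58.1 in R 4.3.3 (adjusted p under 0.05), and the code was tested on simulated data. Summed marker levels are sums of 2 to the power of the log2 value over each list's measured genes, so the brightest genes weigh most.

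The genes, 34 lists and tests were chosen with earlier results of these data known, so list counts are no independent support. Named were list members, the 15 genes each way with the largest smallest difference over informative probe sets, the 6 largest each way with 1 informative probe set, genes with contradictory probe sets, and for the difference between sources the 5 each way with the smallest p. Promoters came from RefSeq (GRCm38.p6), and motifs were searched on both strands. The number of arrays limits the precision. Alternatives were other normalisations, filters, probe sets and thresholds, a block for the emigrant array number, and leaving out each emigrant array.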

Additional observations from a re-analysis of the deposited data

How the results depend on the processing

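Of the counts and shares recomputed under the alternatives, 37 values stayed within 1.5 times the main count (or the spread taken for a share) and 13 moved. The threshold moved them most. At 1.5-fold, 860 genes were higher and 967 lower, and 97 and 125 on every informative probe set; at 3-fold these were 117, 64, 5 and 5, and 58.6% of the genes shared their sign with both emigrant pairs. Without probe sets that can match several transcripts (names ending in _s_at or _x_at), 15 genes were higher and 21 lower on every informative probe set. With dim probe sets included, the lower count was 23, and with the mean of all probe sets of a gene 202 genes were 2-fold lower. Rbm39 reversed to 0.54 with the mean of all its probe sets, from -0.33 on its brightest. Of the named genes, 12 other values moved by more than the spread between probe sets (0.39), each in the same direction. The mean of all probe sets, dim ones included, moved 9: Dsp (2.92), Vim (2.35), Cd244a (1.88), Serpinb1a (2.34), Cd24a (-2.38), Hspa9 (-0.81), Mtf2 (-1.94), Endou (-1.95) and Nolc1, which was still 2-fold lower. Without the _s_at and _x_at probe sets Dntt moved to -4.89, Rfc4 to -1.70 and Aldh18a1 to -0.10. With genes under the array median left out, all 9 remaining AHR targets and all 6 remaining class II genes were higher (100%). Other normalisations kept the main counts within 1.5 times. The test of the difference between thymocytes and emigrants called 0 genes in every setting run, including a replicate block for the emigrant array number (279 genes at an unadjusted p under 0.05, 1 residual degree of freedom) and the omission of each emigrant array in turn (0 to 0 genes). The titles give these numbers except for 1 dioxane emigrant array, which has none and was counted as number 1. Nothing says that the numbers mark a shared culture. Genes under the control level on both arrays (3711) carry no information on TCDD.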

Other observations

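Several genes outside the lists and the naming rule were chosen after their values were seen, and they are given as values alone. Cd160, a receptor of cytotoxic lymphocytes, measured 5.11 in thymocytes with dioxane and 8.41 with TCDD, and its second probe set read 5.22 and 6.40. Il18r1, the interleukin 18 receptor, measured 6.50 and 9.47, and Klrb1b, an NK-cell receptor, 3.92 and 6.55. Calcium-binding S100 genes were also high with TCDD, S100a6 at 5.70 and 8.58 and S100a4 at 6.65 and 9.30. Rgs1, a brake on chemokine receptor signals, measured 6.73 and 9.07, Nfkbiz, a nuclear regulator of NF-kB, 6.68 and 9.11 (its other probe set differed by -0.13), and Fgl2, a fibrinogen-like protein, 5.25 and 8.08. Frmd4b measured 5.07 and 8.45, with other probe sets at 4.23 and 6.20 and at 4.54 and 4.68.

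Cpd, a carboxypeptidase, depended on the probe set: its brightest over all 6 arrays read 3.74 and 7.48, and others 5.71 and 5.68, and 5.03 and 5.95. On the lower side, Smo, the transducer of Hedgehog signals, measured 8.49 and 6.04. Bcat1, which breaks down branched-chain amino acids, measured 7.06 and 4.69, Tcp1, a chaperonin subunit, 11.21 and 9.25, and Ndrg1, a stress-regulated gene, 8.91 and 7.01 (informative probe sets from -2.06 to 0.25). Smarcc1, a subunit of the same remodeller as Smarca4, measured 7.96 and 5.88. These thymocyte values come from 1 array each and have no replicate check.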
